A study of Mus musculus with 22 samples.

Results

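The Kruppel-like factors Klf2, Klf3, Klf4, Klf5, Klf6, Klf7, Klf9, Klf10, Klf11 and Klf13 were followed in mouse duodenal organoids exposed to cold atmospheric plasma (CAP). They were chosen by gene name, and all 10 were present among the 52636 genes of the expression table. Organoids are epithelial structures grown in a gel from intestinal crypts, and CAP is an ionised helium jet that loads the culture medium with reactive oxygen and nitrogen species. RNA-seq covered 22 libraries, 4 of untreated organoids and 3 in each of 6 treated groups. All organoids came from adult wild type mice of the outbred CD1 strain, aged 2 months, with 1 organoid line per mouse, numbered 1 to 4 here. Lines 1 and 2 were at passage 12 and 14, and the labels put lines 3 and 4 at passage 4, which the study lists as an earlier passage. Line 3 was sequenced untreated only, and lines 1, 2 and 4 recur in every group. Plasma was applied at 50 W over 60 s. Direct CAP was given to the organoids themselves at day 1, with fresh medium after 30 min or after 24 h. For indirect CAP the medium was taken from a treated culture of other organoids, and for PAM (plasma-activated medium) it was treated with no organoids in it, and either medium was added at day 1 or at day 2. The labels give 30 minutes for the groups that started at day 1 and 24 hours for those that started at day 2, whereas the study's methods give 24 h for all 4, and the groups are named here by start day. By the study's design the cultures ended at day 3, although it also describes the direct 30 min group as an early time after treatment.

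Kruppel-like factors are transcription factors that bind GC-rich and CACCC-type DNA through zinc fingers at the end of the protein. In the intestinal epithelium, Klf5 is known from the dividing cells of the crypt and Klf4 from the non-dividing cells above them, including goblet cells, where it restrains the cell cycle. Klf6 is known as a tumour suppressor and an injury-response gene, Klf3 as a repressor that works through CtBP, Klf9, Klf10, Klf11 and Klf13 as factors that recruit the corepressor Sin3a, and Klf2 from endothelium and lymphocytes.

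Each value was taken as a number of reads scaled to 20 M (mega) per library and not divided by gene length. The study's figure legends instead describe its values as also per kilobase of transcript. The deposited values summed to about 20 M in every library, and their low values were spaced like scaled whole counts. At an estimated depth of 19.4 to 28.7 M reads, counting error is small for all members except Klf2, whose values lay between 4 and 36. Groups were compared with limma on log2(value + 1), leaving out genes that did not reach 10 in 3 or more of the libraries compared. The threshold asked for both an adjusted p (Benjamini-Hochberg) below 0.01 and a log2 fold change that was 1 or larger in size. Where a group is said to lie above or below all untreated libraries, this describes its values and is no test. The share of all genes that did so in a single treated group is not given, so such a separation cannot be called unusual. Between treated groups such separation was common, at 28.0% of all genes for 24 h against 30 min of direct CAP. The 7 epithelial markers, among them Epcam and Cdh1, had a value of 10 or more in every library. The sum of 6 endothelial markers was between 13 and 112 and that of 6 fibroblast markers between 13 and 45, with 4 of 6 under 10 throughout in both lists. Immune markers summed to between 47 and 253. The mitochondrial share of the values was 1.37% ± 0.135 (SD, n = 4) in untreated organoids and was lowest with PAM from day 2, at 0.749% ± 0.115 (n = 3). In bulk RNA, fewer cells of a type and less RNA per cell cannot be told apart. The untreated libraries of lines 1 and 2 resembled the treated libraries of the other line (median correlation of deviations 0.541 and 0.353) more than those of their own (0.0751 and 0.132), so within-line ratios of these lines rest on labels that the data put in doubt.

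Divided by exon length, the untreated levels put Klf5 first at 1369 ± 77.1 per kilobase (SD, n = 4). Klf3 at 500 ± 12.7 and Klf4 at 475 ± 89.1 came next, and their ranges overlapped. Klf13 at 361 ± 23.1 and Klf6 at 331 ± 73.6 also overlapped. A lower tier held Klf10 at 99.1 ± 42.7, Klf9 at 64.3 ± 22.7, Klf11 at 62.6 ± 14.5 and Klf7 at 47.7 ± 8.47, and each of these overlapped the next. Klf2 was last at 7.85 ± 5.18 per kilobase, apart from all others. Of the untreated ranges that neighbour each other in this order, those of Klf5 and Klf3, Klf4 and Klf13, Klf6 and Klf10, and Klf7 and Klf2 were separate. The genes Klf3 and Klf7 overlap transcripts on the opposite strand, and the strand setting of the counting is not given in the sources used here. Gm20033, which overlaps Klf3, had values of 679 to 1510. Gm26649 and Gm13748, which overlap Klf7, had values of 98 to 274 and of 13 to 62.

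The make-up of the family differed between groups. The summed per-kilobase level of the 10 factors was 3317 ± 190 (n = 4) in untreated organoids and 6922 ± 1695 (n = 3) with PAM from day 2. Klf5 made up 41.3% ± 1.94 of that sum in untreated organoids and 23.2% ± 5.83 with PAM from day 2. The share of Klf6 went from 9.98% ± 2.13 to 27.3% ± 7.12 and that of Klf4 from 14.2% ± 1.88 to 25.5% ± 2.33 between the same groups. Klf5 itself was at 1548 ± 151 per kilobase with PAM from day 2, so that its smaller share went with a larger sum. These shares are a description of the values below and were not tested separately.

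**Figure D1:**
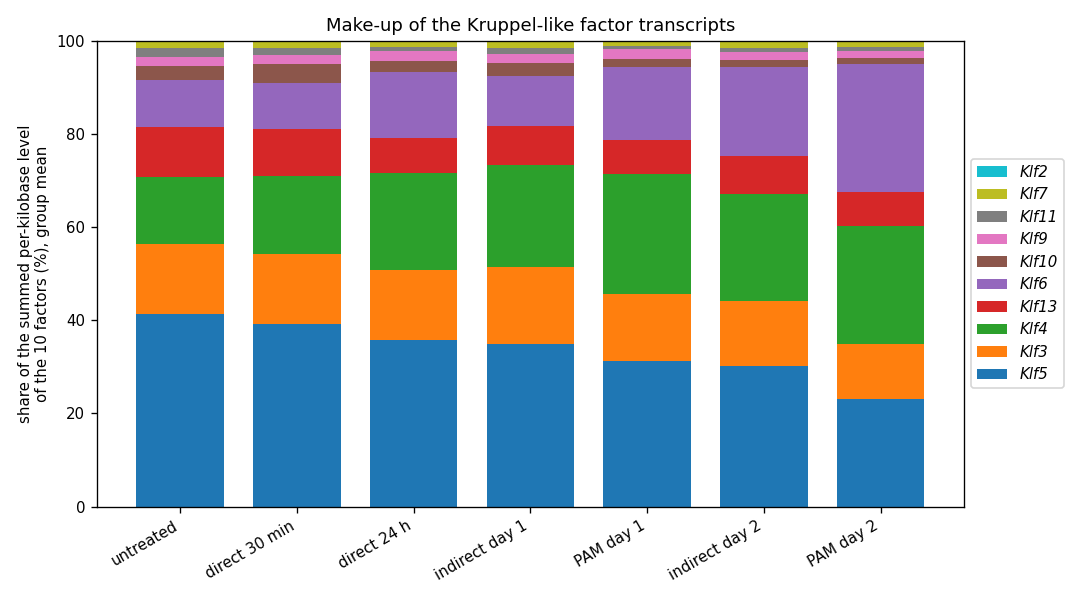
Mean share (%) of each factor in the summed per-kilobase level of the 10 factors, for the 7 groups (4 untreated libraries, 3 in each treated group). The Klf5 segment shrinks from 41.3% in untreated organoids to 23.2% with PAM from day 2, while the Klf6 segment widens from 9.98% to 27.3%.

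Against untreated organoids, Klf4 and Klf6 were the members that passed the threshold, and both rose. In the main comparison, which set the 9 libraries of 24 h direct CAP and of the 2 media given from day 1 against the 4 untreated ones, 1 of 10 members passed, Klf4, beside 6.34% of the 18490 genes tested. These 9 libraries come from only 3 lines, and the test treated them as independent. Its p-values thus do not measure the spread between 9 mice. With PAM from day 1, 2 of 10 passed (10.2% of all genes). With indirect CAP from day 2 it was 2 of 10 (11.9%), and with PAM from day 2 also 2 of 10 (17.3%), in each case Klf4 and Klf6. No member passed with direct CAP, whether for 30 min (0.00564% of genes) or 24 h (2.17%), nor with indirect CAP from day 1 (1.31%). At an unadjusted limma p under 0.05 the number of members in these 3 comparisons was 0, 4 and 4 of 10, beside 24.9%, 32.6% and 38.6% of all genes. With no minimum fold change and an adjusted p under 0.05, 4 members were called in the main comparison (33.5% of genes), 0 and 2 with direct CAP of 30 min (0.00564%) and 24 h (17.3%), 3 and 6 with indirect CAP from days 1 (20.6%) and 2 (43.8%), and 5 and 4 with PAM from days 1 (41.8%) and 2 (47.6%). The members' shares were thus near those of all genes in several comparisons. The median log2 fold change of the members was 0.21 in the main comparison and 0.53 with PAM from day 2, where the medians of all genes were -0.05 and -0.12.

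**Figure D2:**
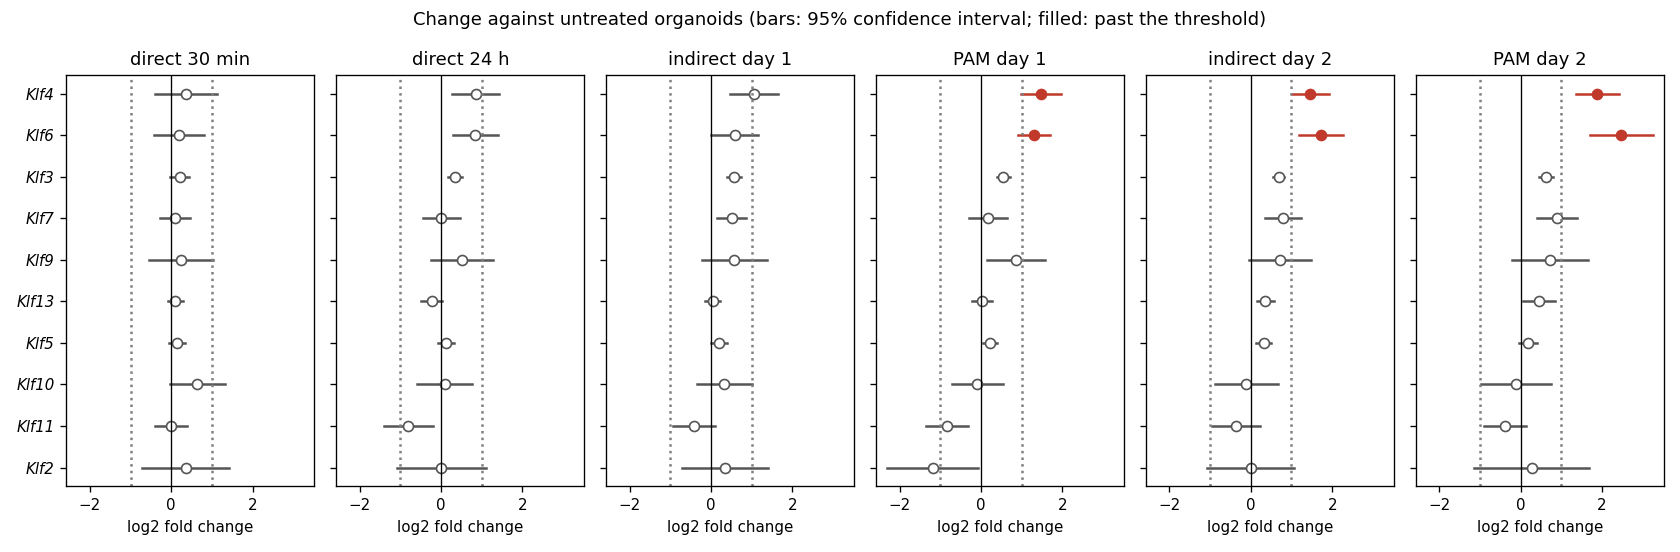
Fitted log2 fold change of each factor against the 4 untreated libraries for the 6 treated groups (3 libraries each), with 95% confidence intervals. Filled points passed the threshold, and dotted lines mark a log2 fold change of 1 in either direction. Klf4 and Klf6 lie beyond the upper dotted line with PAM from day 1 and in both groups that started at day 2, and Klf6 reaches 2.48 with PAM from day 2.

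Klf6 (GRCm38 chromosome 13, 5861482 to 5870394, plus strand) had the widest range of the members, with an SD of 0.88 over the 7 group means of log2(value + 1). In untreated organoids its values were 1049, 1340, 1679 and 1747 in lines 1, 2, 3 and 4. After 30 min of direct CAP they were 1362, 1236 and 2568 in lines 1, 2 and 4, and after 24 h of direct CAP 2306, 1941 and 3718. The 30 min group overlapped the untreated libraries, and the 24 h group lay above all 4 of them. With indirect CAP from day 1 Klf6 was 1871, 1602 and 3240, and with PAM from day 1 it was 3692, 3270 and 3606. With indirect CAP from day 2 it was 3268, 5447 and 5909, and with PAM from day 2 it was 4424, 9365 and 12062, the highest values of the gene. Indirect CAP from day 1 was the only conditioned medium group to overlap the untreated libraries, through line 2. The log2 fold changes were 1.30 ± 0.171 (SE) with PAM from day 1 (limma adjusted p 0.000746), 1.73 ± 0.239 with indirect CAP from day 2 (adjusted p 0.000829) and 2.48 ± 0.333 with PAM from day 2 (adjusted p 0.000905). In the main comparison Klf6 had a log2 fold change of 0.91 ± 0.238 (adjusted p 0.0101), short of the threshold on both criteria, and without the line 2 library of indirect CAP from day 1 it passed at 1.001 (adjusted p 0.00355). After 24 h of direct CAP the log2 fold change was 0.84 ± 0.246 (adjusted p 0.0483), and with indirect CAP from day 1 it was 0.58 ± 0.257 (adjusted p 0.131).

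Klf4 (GRCm38 chromosome 4, 55527143 to 55532466, minus strand) rose in the same groups. The untreated values were 1286, 1413, 1249 and 1841 in lines 1 to 4. After 30 min of direct CAP lines 1 and 2 stayed in that range at 1396 and 1271, and line 4 was at 3572. After 24 h of direct CAP the values were 1994, 2107 and 4102, all above the untreated ones. Line 4 was the highest of the 3 lines in each of the 6 treated groups. Of the media given from day 1, indirect CAP left Klf4 at 2330, 2325 and 4796 and PAM at 3540, 3140 and 5670. Given from day 2, they left it at 2930, 4036 and 5235 and at 3747, 5252 and 7377. Every group but 30 min of direct CAP lay above all untreated libraries. The log2 fold change was 1.13 ± 0.258 in the main comparison (adjusted p 0.00487), and the call was lost without the untreated library of line 1 (adjusted p 0.0198), of line 2 (0.0162) or of line 3 (0.0185), with log2 fold changes of 1.08, 1.12 and 1.06. It was 1.48 ± 0.214 with PAM from day 1 (adjusted p 0.00114), 1.47 ± 0.203 with indirect CAP from day 2 (adjusted p 0.00083) and 1.88 ± 0.231 with PAM from day 2 (adjusted p 0.000643). Indirect CAP from day 1 reached a log2 fold change of 1.05 ± 0.257 with an adjusted p of 0.0259, and 24 h of direct CAP 0.85 ± 0.252 with 0.0504.

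The stretches upstream of the RefSeq starts of Klf4 and Klf6 are shown because these are the members that rose together. Capitals mark GGGCGG on either strand, the GC box, a letter match and not a measured site. The Klf4 stretch is chr4:55532476-55532725 and the Klf6 stretch chr13:5861239-5861481, both in GRCm38.p6 and 5′ to 3′ on the strand of the gene.
Klf4: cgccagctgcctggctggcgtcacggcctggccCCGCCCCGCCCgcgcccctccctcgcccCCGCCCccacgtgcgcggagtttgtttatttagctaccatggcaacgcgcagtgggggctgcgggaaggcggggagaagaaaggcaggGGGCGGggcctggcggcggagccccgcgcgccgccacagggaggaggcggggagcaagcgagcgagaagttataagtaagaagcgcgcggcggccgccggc
Klf6: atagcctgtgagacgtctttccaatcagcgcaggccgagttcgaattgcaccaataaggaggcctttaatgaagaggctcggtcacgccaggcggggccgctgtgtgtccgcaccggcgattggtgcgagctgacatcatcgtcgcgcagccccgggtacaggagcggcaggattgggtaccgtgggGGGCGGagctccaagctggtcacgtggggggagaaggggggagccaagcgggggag
The Klf4 stretch held 4 matches, of which the first and second share a base, and the Klf6 stretch held 1. Within 250 bases upstream, Klf3 held 6, Klf13 3, Klf2 2, Klf7 1 and Klf9 0. Klf11, with negative log2 fold changes against untreated organoids, held 4. G and C made up 74.0% of these bases for Klf4 and 64.8% for Klf6, where the median promoter had 52.0%. A link between matches and changes was not tested. Among 27025 promoters of the RefSeq table, 32.9% held a match within 250 bases upstream. Neither stretch held CACCC (51.3% of promoters), the AP-1 motif TGANTCA (6.87%), the CRE motif TGACGTCA (1.62%) or a CArG box (1.4%), each searched on both strands. The table had entries for 8 of the 10 members, and Klf5 and Klf10 had none.

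Klf3 (GRCm38 chromosome 5, 64803388 to 64832901, plus strand) changed by less, with little spread between lines. Its untreated values were 5436, 5628, 5784 and 5618 in lines 1 to 4. All 18 treated libraries lay above all 4 untreated ones, as 1.68% of 19370 genes did, although the lowest treated value, 5786 in line 2 after 30 min of direct CAP, was at the edge. The other treated values of that group were 6213 and 7631 in lines 1 and 4. The 24 h of direct CAP gave 7112, 7489 and 6717. Indirect CAP gave 8026, 7961 and 9053 from day 1 and 8754, 9333 and 8964 from day 2. PAM gave 8337, 7784 and 8572 from day 1 and 8576, 9111 and 8273 from day 2. The conditioned media groups thus lay close together. The log2 fold change was 0.49 ± 0.0782 in the main comparison (adjusted p 0.000692), 0.57 ± 0.0741 with indirect CAP from day 1 (0.00483), 0.55 ± 0.0718 with PAM from day 1 (0.000732), 0.68 ± 0.0638 with indirect CAP from day 2 (0.000139) and 0.62 ± 0.0793 with PAM from day 2 (0.000739). Klf3 met the p criterion in these 5 comparisons and missed the minimum fold change in each. It was 0.34 ± 0.0778 after 24 h of direct CAP (adjusted p 0.0228) and 0.21 ± 0.1 after 30 min of direct CAP (adjusted p 0.231).

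Klf5 (GRCm38 chromosome 14, 99298691 to 99315036, plus strand), the counterpart of Klf4 in dividing cells, was the most level member, with an SD of 0.0994 over the group means. Untreated values were 7326, 7254, 6524 and 7378, and the 18 treated values ranged from 7096 to 9663, with 15 of them above all untreated ones. The log2 fold change was 0.32 with indirect CAP from day 2 (95% confidence interval 0.13 to 0.51, adjusted p 0.0149) and 0.23 with PAM from day 1 (0.06 to 0.41, adjusted p 0.0403). With PAM from day 2, where Klf4 and Klf6 were highest, Klf5 was 8194, 7204 and 8760 in lines 1, 2 and 4 and its interval was -0.05 to 0.40.

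**Figure D3:**
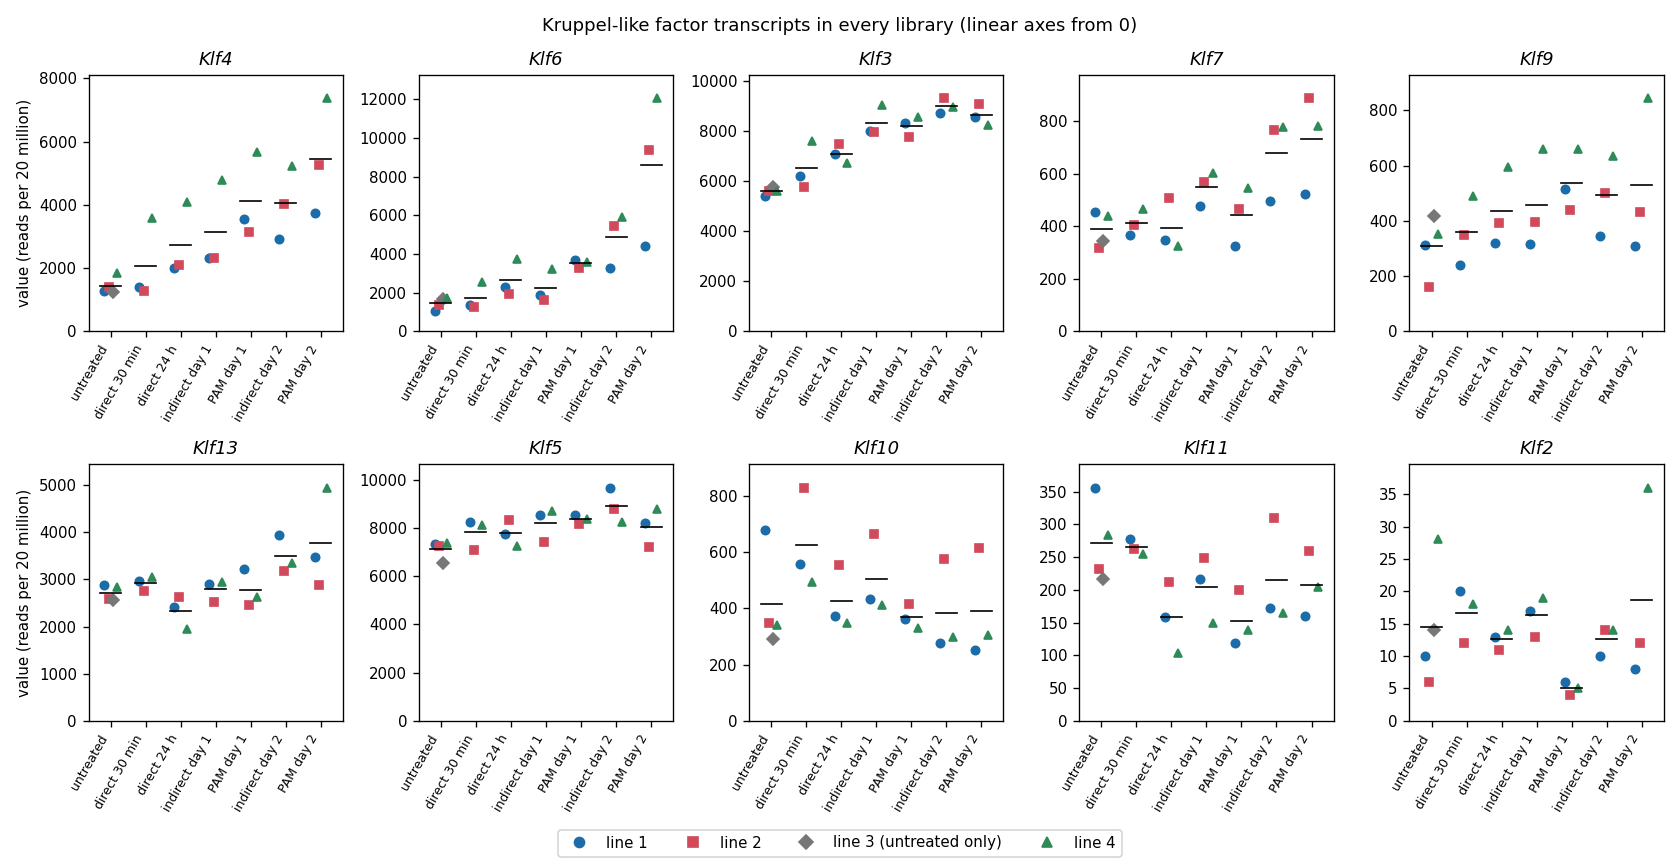
Value of each factor in every library (reads per 20 M, linear axes from 0) for the 7 groups. Symbols mark the organoid line and bars the group mean. Klf6 climbs to 12062 and Klf4 to 7377 with PAM from day 2, Klf3 lies above its 4 untreated libraries throughout, and Klf5 stays between 6524 and 9663.

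Klf7, a widely expressed member close in sequence to Klf6, had its highest values in the groups that started at day 2. Untreated values were 453, 316, 342 and 440 in lines 1 to 4. With indirect CAP from day 2 they were 495, 764 and 776 and with PAM from day 2 522, 887 and 782, above all untreated libraries in both groups. The log2 fold changes were 0.79 ± 0.196 (adjusted p 0.0118) and 0.89 ± 0.213 (adjusted p 0.00994), under the minimum fold change. Line 1 was the lowest of the 3 lines in both, and without it Klf7 passed at 1.01 (adjusted p 0.00391) with indirect CAP and 1.12 (adjusted p 0.0031) with PAM. Quantile normalization, which gives all libraries 1 distribution, also took it past the threshold with PAM from day 2, at 1.15 (adjusted p 0.004, 17.4% of genes called). In the groups that started at day 1, indirect CAP gave 476, 569 and 604 (log2 fold change 0.51, adjusted p 0.0491), while PAM gave 323, 464 and 544 (0.18, adjusted p 0.519).

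Of the members that act with Sin3a, none passed the threshold. Klf9 had positive and Klf11 negative log2 fold changes in all 6 treated groups. After 30 min of direct CAP these were small, at 0.24 (limma adjusted p 0.705) and -0.0095 (adjusted p 0.979). Their sign there was not stable, at -0.053 to 0.50 and -0.11 to 0.13 when 1 library was left out. Klf9 had untreated values of 312, 159, 417 and 351 and was 514, 438 and 659 with PAM from day 1. The log2 fold change there was 0.86 ± 0.31 with an adjusted p of 0.055, short of the threshold. Among the alternatives it passed only in those that compare each line with itself, the replicate block (1.03, adjusted p 0.00998, 7.81% of genes called) and the fit of all groups with that block (1.03, adjusted p 0.00137, 13.0% of genes called). The first lies at the edge of the threshold, and both rest on the line labels of the untreated libraries. Its ratios were 1.65 and 2.75 in lines 1 and 2 as labelled, and 3.23 and 1.40 with their untreated libraries exchanged. Without the block, the other 5 treated groups had log2 fold changes of 0.24 to 0.72. Klf13 had untreated values of 2557 to 2890. With indirect CAP from day 2 it was 3952, 3170 and 3339, above all untreated libraries (log2 fold change 0.36 ± 0.094, adjusted p 0.0158), and with PAM from day 2 it was 3481, 2886 and 4946 (0.44 ± 0.171, adjusted p 0.0641), where line 4 was far above the others. After 24 h of direct CAP it was 2415, 2626 and 1952 (-0.23 ± 0.114, adjusted p 0.201).

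Klf11 had untreated values of 356, 232, 216 and 283. It was 159, 212 and 104 after 24 h of direct CAP and 119, 200 and 139 with PAM from day 1, below all untreated libraries in both groups. Of the 18 treated libraries, 11 lay below all untreated ones and 0 above. Both statements describe the values, and the shares of all genes that did so are not given. The log2 fold change was -0.68 ± 0.221 in the main comparison (adjusted p 0.0281), -0.81 ± 0.263 after 24 h of direct CAP (adjusted p 0.0677) and -0.83 ± 0.229 with PAM from day 1 (adjusted p 0.0193). Without line 2, the highest library of the PAM group, Klf11 passed with PAM from day 1 at -1.05 (adjusted p 0.00875). After 30 min of direct CAP the values were 278, 263 and 254, inside the untreated range.

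Klf10, which like Klf11 is induced early by TGF-beta in many cell types, had no adjusted p under 0.221 against untreated organoids, and its lines stood apart. Its untreated values were 679, 348, 289 and 340 in lines 1 to 4, and within each line the highest treated value, 557, 828 and 492 in lines 1, 2 and 4, came after 30 min of direct CAP (log2 fold change 0.64 ± 0.297, adjusted p 0.221). Klf2 had the lowest values, with 10, 6, 14 and 28 in untreated organoids. It was 6, 4 and 5 with PAM from day 1 (log2 fold change -1.19 ± 0.486, adjusted p 0.0815) and 8, 12 and 36 with PAM from day 2 (0.27 ± 0.614, adjusted p 0.739), and fold changes at such values depend on the pseudocount.

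Within each line, the treated library was divided by the untreated library of that line. For Klf6 these ratios were 4.22, 6.99 and 6.90 with PAM from day 2 in lines 1, 2 and 4, and for Klf4 2.91, 3.72 and 4.01. After 30 min of direct CAP the Klf4 ratio was 1.09 and 0.8995 in lines 1 and 2 and 1.94 in line 4. Klf3 was above 1 in 18 of 18 ratios, between 1.03 and 1.66. Klf10 split by line, with ratios of 0.371 to 0.820 in line 1, 1.20 to 2.38 in line 2 and 0.871 to 1.45 in line 4. With the untreated libraries of lines 1 and 2 exchanged, the Klf10 ratios were 0.724 to 1.60 in line 1 and 0.613 to 1.22 in line 2, and the split was no longer there. The Klf6 ratios under that exchange ran from 1.02 to 3.30 in line 1 and from 1.18 to 8.93 in line 2.

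**Figure D4:**
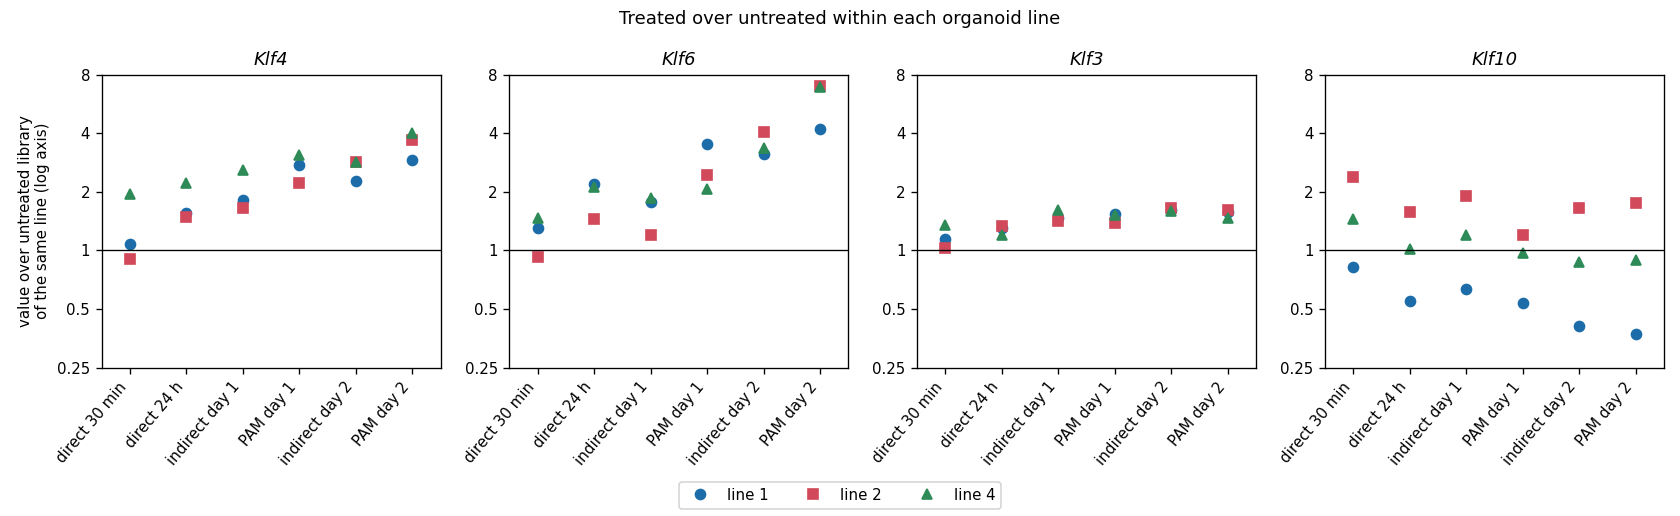
Ratio of each treated library to the untreated library of the same line (log axis) for Klf4, Klf6, Klf3 and Klf10 in the 6 treated groups, with lines 1, 2 and 4 as symbols. Klf6 reaches 4.22 to 6.99 with PAM from day 2, Klf3 stays between 1.03 and 1.66, and Klf10 lies under 1 in line 1 and above 1 in line 2 in every treated group as labelled. With the untreated libraries of these lines exchanged (not drawn), Klf10 would be above 1 in 4 of 6 groups in line 1 and in 1 of 6 in line 2.

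The 5 comparisons between treated groups set exposure times, sources of the medium and start days against each other. No member passed the threshold in them, and of all genes 0.0% passed in the comparison of 24 h of direct CAP with 30 min, 0.0% and 0.0% for indirect CAP and PAM from day 1 against 24 h of direct CAP, 0.0111% for indirect CAP from day 2 against day 1 and 0.0% for PAM from day 2 against day 1. The number of members at an unadjusted limma p under 0.05 was 2, 1, 1, 2 and 2 of 10 in that order, beside 21.4%, 6.95%, 10.4%, 21.7% and 26.8% of all genes. The clearest separation was that of Klf6 between the start days. By the study's design, groups from day 1 had fresh medium for 24 h before the end at day 3. Groups from day 2 ended at the close of exposure, to media made a day earlier. Start day, time since exposure and age of the medium cannot be told apart here. Indirect CAP from day 2 exceeded indirect CAP from day 1 in every line, by 1.75, 3.40 and 1.82 times in lines 1, 2 and 4. These groups did not overlap, as in 26.7% of genes. The log2 difference was 1.15 ± 0.315 with an adjusted p of 0.0987, and with the replicate block it passed (1.15 ± 0.156, adjusted p 0.0008), as did 3.46% of all genes in that fit. PAM from day 2 exceeded PAM from day 1 by 1.20, 2.86 and 3.34 times, a log2 difference of 1.17 ± 0.343 (adjusted p 0.0934), which passed in the fit of all groups with the replicate block (adjusted p 0.00128), where 7.33% of all genes did. Klf4 was also higher from day 2 in each line, by 1.26, 1.74 and 1.09 times with indirect CAP and by 1.06, 1.67 and 1.30 times with PAM, with log2 differences of 0.42 (95% confidence interval -0.35 to 1.19) and 0.40 (-0.32 to 1.12). The 24 h of direct CAP set against 30 min gave log2 differences of 0.65 ± 0.327 for Klf6 (adjusted p 0.273), 0.48 ± 0.432 for Klf4 (adjusted p 0.508) and -0.80 ± 0.257 for Klf11 (adjusted p 0.205), and the Klf11 groups did not overlap, as in 28.0% of genes. PAM and indirect CAP from day 1 differed from 24 h of direct CAP by 0.62 and 0.20 for Klf4 and by 0.46 and -0.26 for Klf6, with adjusted p of 0.517 to 0.856.

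Of the other Kruppel-like factors, 3 of 7 were tested in the main comparison and 0 passed there or with PAM from day 2. Klf16, the most abundant of them at 286 per kilobase in untreated organoids, had log2 fold changes of 0.01 and -0.02. Klf15 had a log2 fold change of -1.46 with PAM from day 2 (adjusted p 0.0225) and did not pass. Its values there were only 18, 6 and 7, where counting error is not small. Of the related SP factors, which bind the same GC-rich DNA, 0 of 7 passed in the main comparison and 2 of 7 with PAM from day 2, where Sp5, a Wnt target, fell by 1.60 and Sp4 fell by 1.08 on the log2 scale. Among 6 corepressors and deacetylases that Kruppel-like factors recruit, 0 passed in the main comparison and 1 with PAM from day 2, Sin3a, which fell by 1.26. Among the factors known to act upstream of them or on their stability, 0 of 8 and 0 of 9 passed. Mef2d and Mapk7, of the ERK5 pathway known to drive Klf2 and Klf4 transcription, had log2 fold changes of 0.82 (adjusted p 0.000781) and 0.78 (adjusted p 0.00873) with PAM from day 2, under the minimum fold change. Of the 9 genes of that list, 7 had positive and 2 negative log2 fold changes there. The part of Mef2d and Mapk7 in the members' values was not tested.

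From a list of 14 genes known as targets of these factors, 12 were tested. In the main comparison 7 had positive and 5 negative log2 fold changes. Past the threshold were 3 upward and 0 downward, beside 6.34% of all genes. Plau, the urokinase plasminogen activator, rose by 1.87 ± 0.376 on the log2 scale. Its values were low, at 6, 16, 44 and 12 untreated and 33 to 83 treated in that comparison, and overlapped. Counting error is not small at such values. Cdkn1a, the cell cycle inhibitor p21, rose by 1.32 ± 0.097 and Ccnd1, cyclin D1, by 1.04 ± 0.181. With PAM from day 2, 5 were positive and 7 negative, and 3 passed upward and 4 downward, beside 17.3% of all genes. Smad7, an inhibitor of TGF-beta signalling, rose by 2.08 ± 0.24, Cdkn1a by 1.80 ± 0.154, and Alpi, intestinal alkaline phosphatase, by 1.42 ± 0.242. Birc5, or survivin, fell by 2.44, the mitotic kinase Cdk1 fell by 2.21, cyclin B1 (Ccnb1) fell by 2.18 and the receptor Tgfbr1 fell by 1.29. The list holds genes that other pathways also control, and its median log2 fold change was 0.36 in the main comparison and -0.31 with PAM from day 2.

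Markers of the cells in which Klf4 and Klf5 are known moved in the same libraries, and their part in the members' values was not tested. The 6 proliferation genes summed to 26487 ± 2970 (SD, n = 4) in untreated organoids and 5903 ± 2575 (n = 3) with PAM from day 2. In that group 6 of 6 passed downward, beside 17.3% of all genes, with log2 fold changes of -1.05 (Pcna) to -2.85 (Mcm5). In the main comparison 6 of 6 were negative and 0 passed, beside 6.34% of all genes. All 5 stem cell genes, led by Lgr5 and Olfm4, were negative in both comparisons. Of these, 4 passed in the main comparison and 5 with PAM from day 2. Their sum was 36022 ± 2840 in untreated organoids and 1525 ± 1070 with PAM from day 2. Of 8 goblet cell genes, 1 passed in the main comparison, Clca1, which rose by 1.51 ± 0.371. The list's median there was 0.31, with 3 of 8 negative, among them Atoh1 at -0.74 (adjusted p 0.0314) and Spdef at -0.65 (adjusted p 0.0745). With PAM from day 2 all 8 were negative and 4 passed, among them Atoh1, which fell by 2.505, and Spdef, which fell by 2.11. The goblet sum was between 80459 and 138764 in untreated organoids, between 86203 and 194755 with PAM from day 1 and between 18968 and 49060 with PAM from day 2, whereas Klf4 was above its untreated range in both PAM groups. Fcgbp made up most of this sum, with 107091 of 138764 in the untreated library of line 1. With PAM from day 1, 5 of the 8 goblet genes had positive and 3 negative log2 fold changes. Of 8 enterocyte genes, 0 passed in the main comparison. With PAM from day 2 only Alpi passed, upward, while 5 of 8 had negative log2 fold changes (median -0.42). With indirect CAP from day 2, 6 of 8 were negative, and Apoa1 and Fabp2, which carry lipids, fell by 2.22 and 1.94 while Alpi rose by 1.07. Klf5 stayed within a log2 fold change of 0.32 in every group while the proliferation sum differed.

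The genes whose pattern over the 22 libraries was nearest to a member's were found by the smallest root mean square difference of centred log2(value + 1) values, among about 14250 genes. For Klf6 they were B430305J03Rik, Rap2b and Ccdc71l, at 0.213, 0.217 and 0.221, where the median gene was at 1.01. For Klf4 they were Themis3, Slc9a2 and Slc2a1, at 0.229, 0.248 and 0.249, with a median of 0.87. For Klf2 the nearest, Gm42815, was at 0.498 with a median of 0.749. The libraries share lines and controls, and these distances are a description.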

How the data were processed

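RNA of 22 libraries was sequenced in paired-end reads of 100 bases. Per the labels' processing notes and the study's methods, the authors trimmed reads with Trimmomatic 0.36, aligned them to GRCm38 with STAR 2.5.3a, counted them with HTSeq 0.9.1 on Ensembl genes and tested them with edgeR. The authors deposited 1 whole-number score per gene and library, a count scaled to 20 M per library and rounded up. The raw counts were not used here, so no count model was run. limma 3.58.1 (R 4.3.3, trended moderated test, no block) was run on log2(value + 1), over the libraries of the groups compared. A simulation planted 200 changes, all well beyond the minimum fold change and in well-expressed genes only. Its libraries were independent, and every gene had the same noise, the median spread of the untreated libraries. Recovery was thus easy, and it does not give the power in the real libraries. With 9 libraries against 4, 3 against 4 and 3 against 3, 200 were recovered. False calls numbered 0, 1 and 0 in that order, among 17739, 17220 and 17067 genes. The share of differences near the threshold that is found in the real libraries, which share lines, was not tested.

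Depth was estimated from the spacing of low values, with an error of at most 1.87% in simulation. None of 24 pairs of replicates was a copy of another. Lines were shared between groups, since each line is 1 mouse. The median correlation of deviations from the group means was 0.564 (45 pairs, 0.219 to 0.806) for 2 treated libraries of 1 line and -0.33 for those of different lines, and 0.149 where untreated libraries were included. Exon lengths are from GENCODE vM21 (52489 of 52636 genes matched) and upstream sequences from RefSeq (GRCm38.p6).

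The members and lists were chosen with earlier results of these data known. All 10 members are described. List genes are named where they passed the threshold in the main comparison or with PAM from day 2, at most 4 a list and largest first. Mapk7, Mef2d, Klf15, Klf16, Lgr5, Olfm4 and cell markers were named after their values were seen. Alternatives were leaving out each library, the replicate block, all groups in 1 fit with and without that block, calls at an adjusted p below 0.05 whatever the fold change, no filter on low values, 10 as pseudocount, and quantile normalization.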

Additional observations from a re-analysis of the deposited data

Results flagged for a closer look

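In the untreated group of 4, the gap of 1 library to the others was beyond Dixon's limit for 2 of 10 members, where chance flags about 1 in 20. Klf10 was 679 in line 1, against 289 to 348 in the other untreated libraries, and Klf5 was 6524 in line 3, against 7254 to 7378.

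By the line labels, the treated values of Klf10 lay on opposite sides of the untreated one in lines 1 and 2. The median ratio to the untreated library of the same line was 0.541 in line 1, under 1 in 6 of 6 treated libraries, and 1.71 in line 2, above 1 in 6 of 6. The labels of these untreated libraries are in doubt, and with the 2 exchanged the ratios were 0.724 to 1.60 in line 1, above 1 in 4 of 6, and 0.613 to 1.22 in line 2, above 1 in 1 of 6. This difference was not tested, and each line's ratios share 1 untreated library.

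Klf13 lay above the untreated mean of 2716 in all 3 libraries after direct CAP for 30 min and below it in all 3 after direct CAP for 24 h. The log2 difference between the groups was -0.34 ± 0.133, with a limma adjusted p of 0.219, and the groups did not overlap, as was the case for 28.0% of all genes.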

How the results depend on the processing

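Klf11 after 30 min of direct CAP was near 0 and is not in the next count. It ranged from -0.11 to 0.13 without 1 library and from -0.11 to 0.0097 in the other settings. The direction of the other reported log2 fold changes of the members held in every setting apart from leaving out 1 library, where 6 of 380 fits turned it. Those ranges were -0.32 to 0.70 for Klf2 with PAM from day 2, -0.053 to 0.50 for Klf9 after 30 min of direct CAP and, for indirect CAP from day 1 against 24 h of direct CAP, -0.15 to 0.53 for Klf4 and -0.56 to 0.012 for Klf6. None of these had passed the threshold. Over all members and comparisons, the sign turned in 58 of 838 fits without 1 library and in 22 of 833 others, and in these fits no log2 fold change was above 0.372 in size before or after. With no minimum fold change and an adjusted p below 0.05, 4 members were called in the main comparison, 2 after 24 h of direct CAP, 3 and 6 with indirect CAP from days 1 and 2, and 5 and 4 with PAM from days 1 and 2. The replicate block, alone or in the fit of all groups, called 1 member (Klf6) for indirect CAP from day 2 against day 1, and the fit of all groups with the replicate block also called 1 (Klf6) for PAM from day 2 against day 1. The block, alone or with all groups, also added Klf9 with PAM from day 1, a call that rests on the doubted line labels, and changed no other call, and line 3, untreated only, adds nothing to its differences. Leaving out 1 library gave 0 to 2 members in the main comparison, with Klf4 lost without the untreated library of line 1, 2 or 3 and Klf6 added without line 2 of indirect CAP from day 1. Klf7 was added without line 1 in either group that started at day 2 and, with PAM from day 2, by quantile normalization, which moved the median of all genes there from -0.12 to 0.00027. Klf11 was added with PAM from day 1 without line 2. The cause of these changes was not tested. The calls of Klf4 and Klf6 with PAM from day 1 and with both media from day 2 held in every alternative run. Counting error limits what can be said of Klf2, whose values are at most 36.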
